A study of Drosophila melanogaster with 15 samples.

Results

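The comparison described here sets larval ventral lateral neurons (LNvs) of the clock mutant per0, taken 3 h after lights-off at zeitgeber time (ZT) 15, against wild-type LNvs taken 3 h after lights-on at ZT3. It asks which transcripts of the evening state are present when the PER repressor is missing, relative to the wild-type morning. The arrays were chosen by their titles, 3 for per0 LNvs at ZT15 and 3 for wild-type LNvs at ZT3, that is 6 of the 15 arrays of the series. All groups came from brains of third-instar larvae raised at 25 °C in equal periods of light and dark. The wild-type larvae were yellow white with Pdf-Gal4 driving UAS-GFP, and the mutants were yellow white with per0 and a Pdf-RFP reporter. Genotype, time of day and reporter therefore all change between the groups, and their parts cannot be told apart from this comparison alone. Wild-type LNvs at ZT15 (same genotype as at ZT3), cyc0 LNvs at ZT15 (yellow white, Pdf-RFP, cyc0) and neurons labelled by elav-Gal4 with UAS-GFP at ZT15 were measured in 3 arrays each, and their levels are given beside the main difference. The labels' extraction text names RFP-positive cells for every array, and the reporters given here follow the genotype labels. The tissue label reads LNvs for the elav arrays too, although their Pdf level was low.

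In the fly clock the transcription factors CLOCK (CLK) and CYCLE (CYC) activate period (per) and timeless (tim) during the day and early night, and the PER and TIM proteins later repress CLK/CYC. A second loop runs through vri, Pdp1 and cwo, which CLK/CYC also activate and which feed back on clock transcription. LNvs are the pacemaker neurons that make the neuropeptide PDF. The per0 mutant lacks PER function and so the repression, and cyc0 lacks the activator.

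Both groups carried the LNv transcript at a high level. Pdf stood at 12.57, 12.77 and 12.66 on the ZT3 arrays and at 13.07, 12.93 and 13.05 on the per0 arrays, against a mean of 3.70 in elav neurons (log2 GCRMA values, as all levels below). The Pdf promoter drove the reporter used for sorting, so this checks the sort and is no finding. Of 18769 probe sets other than controls, between 3636 and 4509 reached a log2 value of 4 on the ZT3 arrays and between 3694 and 5436 on the per0 arrays. Each of the 6 arrays correlated best with another array of its own group, although the third per0 array had the most probe sets at that level of all 15. The summed level of glial markers was lower in per0. The log2 of the sum of 10 glial markers was 8.38 to 8.94 at ZT3 and 6.80 to 7.32 in per0. It was 7.78 to 8.47 in wild type at ZT15 and 7.06 to 7.91 in cyc0. Bright markers weigh most in such a sum of linear levels. One of them, Gs2, had been picked on the difference of per0 from wild type at ZT15, so that the sum is no independent support. The defining glial marker repo stood at 5.87, 3.58 and 7.37 at ZT3 and below 3 on every per0 array (adjusted p = 0.0687), and its part in the lower transcripts below was not tested. Hemocyte, fat body, photoreceptor and muscle sums overlapped between the groups, and all 6 muscle markers lay below 4 on all 6 arrays. These are pools of sorted cells, in which fewer cells of a type and less RNA per cell cannot be told apart.

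Of 5829 probe sets tested 126 passed an adjusted p of 0.05 (2.16%), 57 higher (0.978%) and 69 lower (1.18%) in per0 at ZT15 than in wild type at ZT3. By gene, with each gene represented by its brightest probe set, 46 of 4718 were higher (0.975%) and 52 were lower (1.1%). For all 98 genes called, the per0 arrays did not overlap the ZT3 arrays. Without overlap but with or without a call, 15.4% of genes were higher and 8.99% lower, and by probe set 14.8% and 9.81%. The median difference over all genes tested was 0.20, and the median standard error of a difference was 0.66. The count of called probe sets fell from 126 to 63, 37 and 96 without ZT3 replicates 1, 2 and 3 and to 53, 60 and 54 without per0 replicates 1, 2 and 3. Without the third per0 replicate 14 higher and 40 lower calls were left, and without the first ZT3 replicate 17 and 46.

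**Figure D1:**
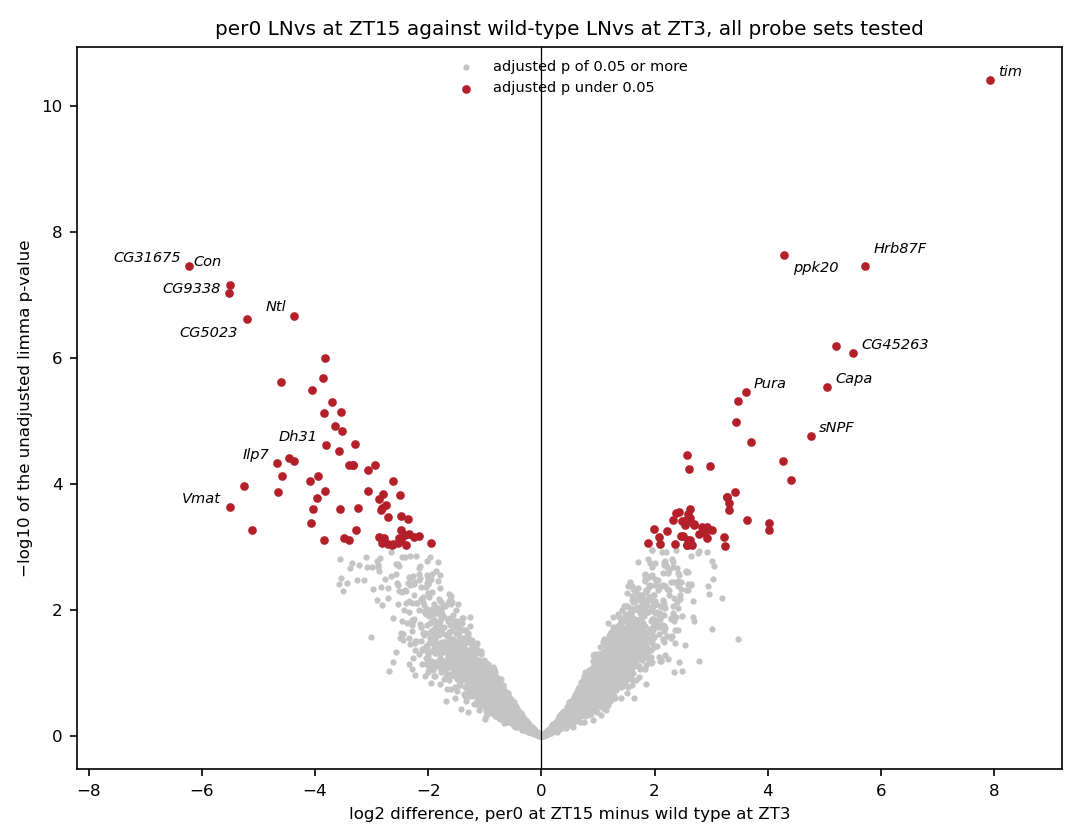
Each point is 1 of the 5829 probe sets tested, with the log2 difference of per0 at ZT15 minus wild type at ZT3 on the x axis and the −log10 of the unadjusted limma p-value on the y axis. Red points passed an adjusted p of 0.05, and tim (7.92), Hrb87F (5.72), ppk20 (4.29) and CG31675 (-6.23) are among the labelled points at the upper edges.

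The core clock transcripts of per0 neurons at ZT15 stood far above the wild-type morning for tim, per and Pdp1. The transcript of per itself, the gene mutated in per0, lay at 3.24, 3.88 and 3.74 on the ZT3 arrays and at 8.11, 5.40 and 7.61 on the per0 arrays. It was at least 8.22-fold higher in per0 (adjusted p = 0.0156), and the labels name no lesion that its level could check. A fold is given as "at least" where all 3 arrays of the dimmer group lay below log2 4, and is then the brighter mean against that working level. The partner gene tim lay at 3.04, 3.06 and 2.81 at ZT3 and at 11.07, 10.84 and 10.76 in per0. It was at least 119-fold higher (log2 difference 7.92, SE 0.55, adjusted p = 2.21e-07), and its other tested probe set differed by 5.20 (adjusted p = 0.000407). Pdp1, which encodes a bZIP activator of the second loop, lay at 7.31, 7.38 and 7.18 at ZT3 and at 10.95, 10.90 and 9.88 in per0 (log2 difference 3.29, SE 0.69, adjusted p = 0.0174). In these 3 genes every per0 array lay above every ZT3 array.

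The other second-loop transcripts did not pass. For vri, the gene of a bZIP repressor, the values were 10.20, 10.04 and 9.98 at ZT3 and 11.53, 11.43 and 11.22 in per0, with no overlap and a log2 difference of 1.32 (adjusted p = 0.248). For cwo, which encodes a bHLH repressor, they were 7.19, 8.09 and 7.53 against 7.0, 6.24 and 7.58, with overlap (-0.66, adjusted p = 0.785), and the other tested probe set of cwo differed by -1.72 (adjusted p = 0.455). Thus 3 of 5 CLK/CYC targets were higher in per0 and none was lower, beside 0.975% of all genes called higher, with a median difference of 3.29 against 0.20 over all genes. Since tim, per and Pdp1 had also been picked on the wild-type arrays, including the same ZT3 arrays, that share is no independent support.

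Set beside the wild-type evening, no difference was called for these targets, and each interval reached beyond 1 log2 unit in at least 1 direction. The difference of per0 from wild type at ZT15 was -0.00 for tim (95% interval -1.16 to 1.15), -0.20 for per (-1.68 to 1.27), 0.10 for Pdp1 (-1.34 to 1.55) and -0.00 for vri (-1.15 to 1.14). For cwo it was -0.30 (-2.27 to 1.67), and for the other probe set of cwo -2.88 (-5.10 to -0.65, adjusted p = 0.193). In cyc0 neurons, at the same hour as per0, tim averaged 2.98 and per 3.29, against 2.97 and 3.62 in the wild-type morning. The difference of cyc0 at ZT15 from wild type at ZT3 was 0.01 for tim and -0.34 for per (adjusted p = 0.996 and 0.859). The call of per was lost without ZT3 replicates 1 or 2 or per0 replicates 1 or 3 (adjusted p 0.053 to 0.0865). That of Pdp1 was lost without ZT3 replicates 1 or 2 or per0 replicates 1 or 2 (0.054 to 0.0799).

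No member passed among 10 tested genes for other clock factors and their partners, with a median of 0.26. Cipc, named after a protein that binds CLOCK in mammals, stood at 3.87, 5.76 and 7.47 at ZT3 and at 8.28, 6.21 and 7.12 in per0 (log2 difference 1.5, adjusted p = 0.368). The photoreceptor protein gene cry differed by 0.38 (adjusted p = 0.884) and cyc by 1.31 (adjusted p = 0.384), both with overlap. The tyf gene, whose product promotes PER translation, differed by -2.43 (adjusted p = 0.155), and its other tested probe sets by -2.22 and -3.54 (adjusted p = 0.26 and 0.089). Clk itself was too dim on these arrays to be tested.

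**Figure D2:**
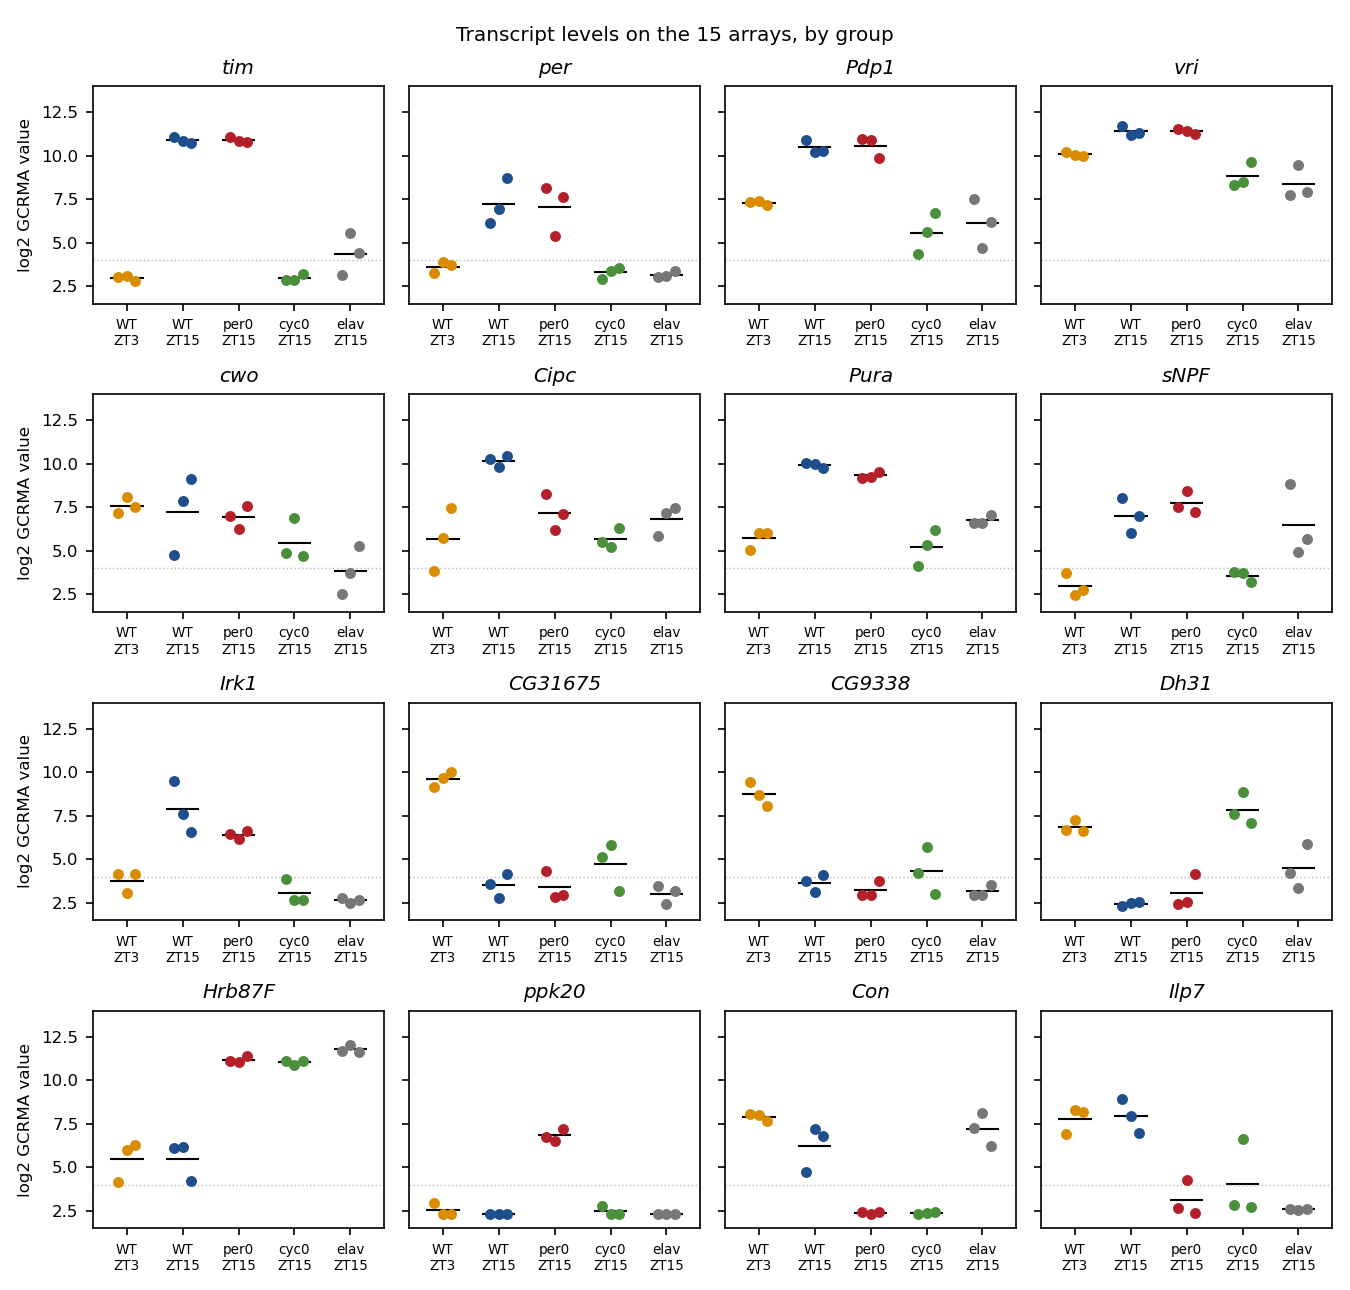
Levels of 16 genes on every array (log2 GCRMA value on the y axis, the 5 groups on the x axis), where points are arrays, black bars are group means and the dotted line marks log2 4. The per0 points for tim and Pura lie beside the wild-type ZT15 points, those for Hrb87F lie with cyc0 and elav neurons, and ppk20 is above 4 in per0 alone.

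Beyond the clock loop, the evening-high transcripts Pura, sNPF and Irk1 were also higher in per0 than in the wild-type morning. Pura stood at 5.08, 6.04 and 6.05 at ZT3 and at 9.19, 9.27 and 9.54 in per0. That is 12.2-fold higher (log2 difference 3.61, SE 0.54, adjusted p = 0.00125). The neuropeptide gene sNPF lay at 3.73, 2.46 and 2.76 at ZT3 and at 7.53, 8.45 and 7.25 in per0, at least 13.4-fold higher (adjusted p = 0.00422). The Irk1 gene, for a channel of the inward rectifier class that passes potassium, lay at 4.12, 3.04 and 4.13 against 6.42, 6.15 and 6.62. Its log2 difference of 2.63 (SE 0.65, adjusted p = 0.0403) was the only call among 7 tested potassium channel genes, beside 0.975% of all genes called higher.

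These 3 genes had been picked on the wild-type arrays, including the same ZT3 arrays. Neither their low ZT3 level nor the share of potassium channel genes called is therefore independent support. At ZT15 wild type averaged 9.94 for Pura, 7.03 for sNPF and 7.89 for Irk1, against 9.33, 7.74 and 6.40 in per0. The difference of per0 from wild type at ZT15 was -0.61 for Pura (95% interval -1.75 to 0.53), 0.71 for sNPF (-1.0 to 2.42) and -1.49 for Irk1 (-2.86 to -0.13, adjusted p = 0.263). In cyc0, Pura, sNPF and Irk1 averaged 5.23, 3.58 and 3.04. The call of Irk1 was lost without any single ZT3, per0 or elav array, without wild-type ZT15 replicate 2 and without cyc0 replicate 1 (adjusted p 0.0507 to 0.171).

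Further genes among the 20 largest positive differences also had a high mean in the wild-type evening. Elp6, a subunit of the Elongator complex, averaged 4.81 at ZT3, 7.15 in wild type at ZT15 and 8.09 in per0 (adjusted p = 0.0174 for per0 against ZT3). kug, an atypical cadherin of the Fat family, averaged 4.21, 6.66 and 7.53 in the same order (adjusted p = 0.0226). CG4168 averaged 3.93, 7.03 and 7.17 (adjusted p = 0.0439) and tei 4.55, 6.89 and 7.77 (adjusted p = 0.039). In wild type itself the ZT15 difference of these 4 genes from ZT3 ran from 2.34 to 3.11 and did not pass (adjusted p 0.113 to 0.252). In cyc0 Elp6, kug and tei averaged 7.06, 6.21 and 5.99, while CG4168 averaged 4.86. Each of these 4 calls was lost without ZT3 replicates 1 or 2 or per0 replicates 1 or 3, with adjusted p between 0.053 and 0.179 over those arrays. Other arrays ended some of them too, with kug at 0.0504 without ZT3 replicate 3, kug, Elp6 and CG4168 at 0.0511 to 0.0948 without per0 replicate 2, and tei at 0.0571 without cyc0 replicate 1 and 0.0501 without elav replicate 1. The call of CG4168 was also lost without wild-type ZT15 replicates 2 or 3, cyc0 replicate 2 or elav replicates 1 or 3 (0.0502 to 0.0583).

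Several transcripts that are high in the wild-type morning were low in per0 at ZT15. CG31675, which encodes a protein of the Ly6 family, stood at 9.15, 9.65 and 9.99 at ZT3 and at 4.34, 2.83 and 2.94 in per0. It was lower in per0 (log2 difference -6.23, SE 0.67, adjusted p = 4.96e-05), with 2 of its 3 per0 arrays below log2 4. CG9338, another Ly6-domain gene, stood at 9.46, 8.69 and 8.06 against 2.94, 2.95 and 3.76, at least 26.7-fold lower (adjusted p = 8.91e-05). Both passed among 12 tested Ly6-domain genes, beside 1.1% of all genes called lower, and no member was called higher (median -0.73). Both had been picked on the wild-type arrays, including the same ZT3 arrays, so that this share is no independent support.

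Ntl, a transporter gene of the neurotransmitter transporter family, lay at 7.68, 7.16 and 5.66 at ZT3 and at 2.33, 2.40 and 2.68 in per0, at least 7.13-fold lower (adjusted p = 0.000171). It reached log2 4 on ZT3 arrays alone, so that it entered the test only through them. DIP-gamma, whose product is an immunoglobulin-domain receptor for Dpr proteins, lay at 7.55, 7.38 and 6.77 against 3.52, 3.46 and 4.11 (log2 difference -3.53, adjusted p = 0.00215). The diuretic hormone gene Dh31 lay at 6.66, 7.26 and 6.63 against 2.43, 2.57 and 4.13 (-3.81, adjusted p = 0.00516). For these 5 genes no per0 array reached the lowest ZT3 array, and the calls were kept without any 1 of the 15 arrays. Also lower were Ddc, the dopa decarboxylase gene (-2.86, adjusted p = 0.0178), Nmdmc, a folate enzyme gene (-3.27, adjusted p = 0.0345), and Tab2, an adaptor of immune and stress kinase signalling (at least 6.62-fold, adjusted p = 0.00618). The Toll receptor gene Tl differed by -3.55 (adjusted p = 0.0226), while its other tested probe set differed by 0.23 (adjusted p = 0.926). Ntl, DIP-gamma, Dh31, Ddc, Nmdmc and Tl had also been picked on the wild-type arrays, so that their high ZT3 level is no independent support.

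At ZT15 wild-type neurons averaged 3.50 for CG31675, 3.63 for CG9338, 2.44 for Ntl, 3.41 for DIP-gamma and 2.44 for Dh31, against 3.37, 3.22, 2.47, 3.70 and 3.04 in per0. The per0 difference from the wild-type evening lay between -0.42 (CG9338, 95% interval -1.75 to 0.92) and 0.60 (Dh31, -0.81 to 2.01). The cyc0 neurons gave a mixed picture at the same hour. CG31675, CG9338 and Ntl averaged 4.69, 4.29 and 2.58 there, below ZT3 by 4.91, 4.44 and 4.25 on the log2 scale (adjusted p = 0.000512, 0.000816 and 0.000223). Dh31 and DIP-gamma averaged 7.84 and 7.13 in cyc0, with differences from ZT3 of 0.99 and -0.10 (adjusted p = 0.497 and 0.956). Of these transcripts Ddc lost its call without ZT3 replicate 2 or per0 replicates 1 or 2 (adjusted p 0.0799 to 0.0852) and Tab2 without ZT3 replicate 2 (0.0525). Tl and Nmdmc each lost theirs without ZT3 replicates 1 or 2 or any per0 array (0.0517 to 0.158).

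Other transcripts known from the wild-type arrays to be higher in the evening did not pass in per0 against the morning. Besides Cipc these were the adhesion gene CadN, at 3.23, 3.84 and 3.31 at ZT3 and 4.49, 3.85 and 4.55 in per0 (log2 difference 0.84, adjusted p = 0.627), and the synaptic cleft gene hig. The hig transcript lay at 3.66, 4.24 and 4.73 against 6.44, 3.15 and 5.58 (0.84, adjusted p = 0.627). In wild type at ZT15 CadN, hig and Cipc averaged 7.05, 8.02 and 10.18. Per0 stood below that evening level by 2.75, 2.97 and 2.97 on the log2 scale, which did not pass either (adjusted p = 0.0792, 0.0572 and 0.0686). Tbh, the octopamine synthesis gene, averaged 6.25 at ZT3, 9.49 in wild type at ZT15 and 5.98 in per0, and the wild-type difference of 3.23 did not pass (adjusted p = 0.0633). Its per0 level was lower than in the wild-type evening (-3.51, adjusted p = 0.033) and differed from ZT3 by -0.27 (adjusted p = 0.899). Of the 17 transcripts chosen on the wild-type arrays, 6 were higher and 8 lower in per0 than at ZT3 and 3 did not pass. Because the ZT3 arrays served in that choice and in this count, it is a description only.

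A second set of transcripts set per0 apart from wild type at both times. Hrb87F, which encodes an hnRNP RNA-binding protein, stood at 4.18, 5.99 and 6.26 at ZT3 and at 11.14, 11.07 and 11.37 in per0, a 52.6-fold difference (log2 difference 5.72, SE 0.61, adjusted p = 4.96e-05). In wild type at ZT15 it averaged 5.47, in cyc0 11.03 and in elav neurons 11.78. The cyc0 and per0 neurons carried RFP while the wild-type and elav neurons carried GFP, so that among the LNvs mutant and reporter cannot be told apart. ppk20, a pickpocket-family sodium channel subunit gene, stood at 2.94, 2.34 and 2.34 at ZT3 and at 6.78, 6.52 and 7.21 in per0. That is at least 7.13-fold higher (adjusted p = 4.96e-05), and ppk20 averaged between 2.34 and 2.48 in the other 3 groups. It reached log2 4 on per0 arrays alone, so that it entered the test only through them.

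Capa, the precursor gene of capability and pyrokinin-type peptides, lay at 2.71, 2.46 and 2.69 at ZT3 and at 9.14, 8.74 and 5.14 in per0, at least 12.8-fold higher (adjusted p = 0.00118). The third per0 array stood well below the other two but above all ZT3 arrays. CG45263 lay at 3.79, 3.10 and 3.10 against 9.22, 9.01 and 8.28, at least 28.6-fold higher (adjusted p = 0.000477), and its other tested probe set differed by 3.71 (adjusted p = 0.00502). In wild type at ZT15 CG45263 spread over 7.75, 4.33 and 4.10. Its other probe set differed between per0 and that evening by 1.70 and did not pass (adjusted p = 0.205). Plp, which encodes a pericentrin-like centrosomal protein, differed by at least 8.8-fold, higher in per0 (adjusted p = 0.00159). The cytochrome P450 gene Cyp4p2 averaged 2.91 at ZT3 and 6.35 in both mutants, at least 5.1-fold higher in per0 (adjusted p = 0.00289). Its close paralog Cyp4p1, on a probe set of its own, averaged 2.46 at ZT3, 5.12 in per0 and 5.43 in cyc0. It was also higher in per0 than at ZT3 (log2 difference 2.66, adjusted p = 0.0433). Whether these paralogs share probe signal was not tested, so that the value of Cyp4p2 is uncertain.

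By the brightest probe set, the difference between per0 and wild type at ZT15 passed for each of these genes. It was 5.72 for Hrb87F (adjusted p = 9.84e-05), 4.49 for ppk20 (6.81e-05), 5.06 for Capa (0.00403), 3.44 for CG45263 (0.0319), 3.49 for Plp (0.00544) and 3.98 for Cyp4p2 (0.00326). Hrb87F, ppk20 and Capa had been picked on this difference, and the genes are grouped here by whether it passed, so that their passing is no finding. Since the differences from ZT3 and from ZT15 both use the per0 arrays, they do not support each other. Further genes were higher in per0 than at ZT3 with no such call against the wild-type evening. They included the neuropeptide precursor gene Nplp1 (log2 difference 4.27, adjusted p = 0.00775), the Ryk-family receptor gene drl (4.02, adjusted p = 0.0305), the midkine homologue miple2 (3.63, adjusted p = 0.0287) and the glycogenin gene Gyg (3.31, adjusted p = 0.02). Their means were 7.13, 6.38, 5.38 and 5.10 in wild type at ZT15 and 9.82, 8.83, 8.38 and 7.49 in per0. CG15772 completed the 20 largest (3.01, adjusted p = 0.0345), at 7.36, 3.94 and 6.91 in per0. The calls of drl, miple2, Gyg and CG15772 were each lost without ZT3 replicates 1 or 2 or per0 replicate 3 (adjusted p 0.0596 to 0.142). Gyg and CG15772 also failed without ZT3 replicate 3 or per0 replicate 1 (0.0541 to 0.158), miple2 without per0 replicate 2 (0.12) and drl without per0 replicates 1 or 2 (0.0614 and 0.103).

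**Figure D3:**
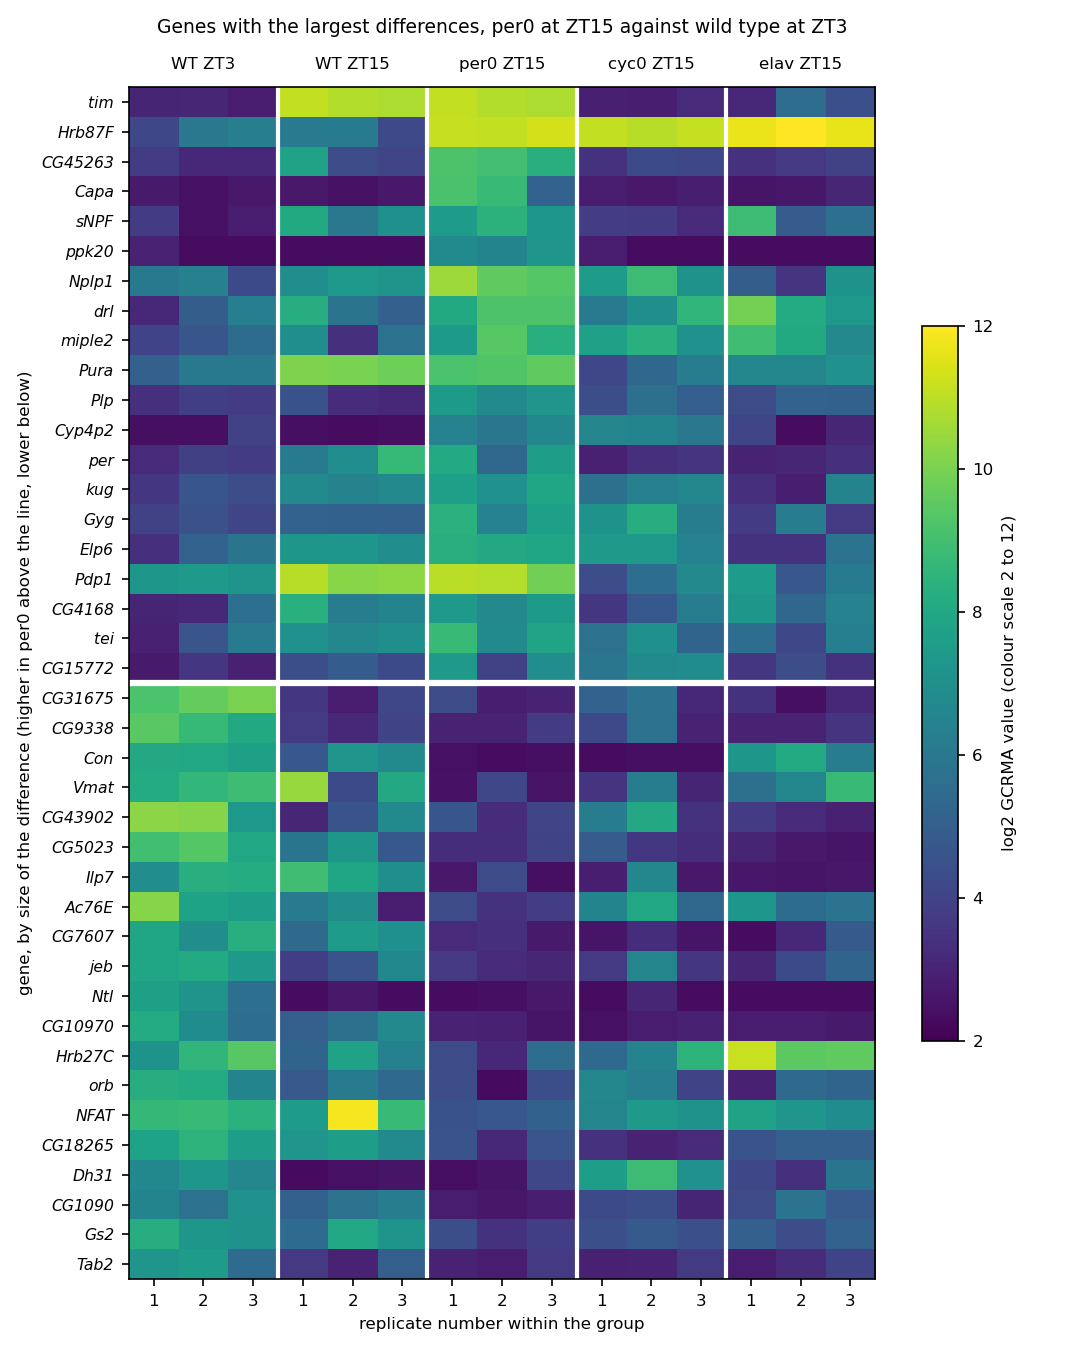
Colour gives the log2 GCRMA value of the 20 genes with the largest positive (above the white line) and the 20 with the largest negative difference of per0 at ZT15 from wild type at ZT3, for the 15 arrays in 5 groups. tim and Pdp1 are bright in wild type at ZT15 and in per0, Hrb87F is bright in per0, cyc0 and elav neurons, and Con and CG10970 are dark in both mutants.

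Among the lower transcripts, an equally distinct set was high in wild type at both times. Con, the gene of the homophilic adhesion protein Connectin, stood at 8.05, 8.00 and 7.68 at ZT3 and at 2.46, 2.31 and 2.42 in per0, at least 15-fold lower (adjusted p = 8.06e-05). It averaged 6.25 in wild type at ZT15, 2.38 in cyc0 and 7.21 in elav neurons. CG7607 lay at 7.90, 6.93 and 8.31 against 3.23, 3.38 and 2.72, at least 13.1-fold lower (adjusted p = 0.00106). CG10970 was at least 7.28-fold lower (adjusted p = 0.00125), CG1090 at least 5.42-fold (adjusted p = 0.00159) and CG18265 14.1-fold (log2 difference -3.82, adjusted p = 0.000516). In wild type at ZT15 these 4 genes averaged 6.65, 5.79, 5.69 and 7.2, and in cyc0 2.82, 2.70, 3.90 and 3.20. Each was also lower in per0 than in the wild-type evening (adjusted p between 0.0066 and 0.0234). Con had been picked on this difference and the other 4 genes are grouped here by it, so that their passing is no finding.

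The insulin-like peptide gene Ilp7 lay at 6.91, 8.31 and 8.18 at ZT3 and at 2.69, 4.30 and 2.40 in per0 (log2 difference -4.67, SE 0.87, adjusted p = 0.00775), with a wild-type evening mean of 7.96. NFAT, a transcription factor gene, lay at 8.68, 8.74 and 8.37 against 4.51, 4.70 and 5.12 (-3.82, adjusted p = 0.0154). Gs2, a glutamine synthetase gene used as a glial marker, lay at 8.21, 7.30 and 7.12 against 4.41, 3.46 and 3.85 (-3.64, adjusted p = 0.00317). It was the only call among 5 tested glial markers, whose median was -0.95, beside 1.1% of all genes called lower. Gs2 had itself been picked on the difference of per0 from wild type at ZT15, so that this share is no independent support. In wild type at ZT15 Gs2 averaged 6.90 while repo averaged 2.98. All 3 genes were lower in per0 than in the wild-type evening as well (adjusted p = 0.0107, 0.0066 and 0.0225). They had been picked on that difference, so that their passing there is no finding. The call of Ilp7 against ZT3 was lost without ZT3 replicate 2 or per0 replicate 3 (0.053 and 0.0509), and that of NFAT without ZT3 replicates 1 or 2 or per0 replicates 1 or 2 (0.0521 to 0.0686).

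Others of the 20 largest negative differences had wild-type evening levels between those of the morning and of per0. CG5023 averaged 8.78 at ZT3, 5.98 in wild type at ZT15 and 3.57 in per0 (adjusted p = 0.000171 for per0 against ZT3). jeb, which encodes the secreted ligand Jelly belly of the Alk receptor, averaged 7.78, 5.03 and 3.31 in the same order and was at least 13.7-fold lower than at ZT3 (adjusted p = 0.00731). The adenylyl cyclase gene Ac76E averaged 8.53, 5.30 and 3.88 (adjusted p = 0.0156), CG43902 9.27, 4.82 and 4.01 (adjusted p = 0.0137), and the translational regulator orb 7.64, 5.45 and 3.67 (adjusted p = 0.0175). Hrb27C, another hnRNP gene, averaged 8.37, 6.46 and 4.34 (adjusted p = 0.0226), opposite in direction to Hrb87F. The vesicular monoamine transporter gene Vmat lay at 8.14, 8.62 and 8.91 at ZT3 and at 2.49, 4.13 and 2.53 in per0 (-5.51, SE 1.19, adjusted p = 0.0226). Its wild-type evening arrays spread from 4.26 to 10.46, and its other tested probe set differed by -2.06 (adjusted p = 0.163). The calls of Vmat, CG43902, Ac76E, orb and Hrb27C were each lost without at least 1 array of either compared group. Over those arrays, which included all 3 ZT3 and all 3 per0 replicates, the adjusted p ran from 0.054 to 0.105.

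Read by function, the neuropeptide genes held calls in both directions. Of 8 tested neuropeptide genes other than Pdf, Capa, sNPF and Nplp1 were higher and Ilp7 and Dh31 lower, with a median of -0.50. Of all genes 2.08% were called in either direction. The other 17 of the 25 on the array were too dim to be tested, and Capa reached log2 4 on per0 arrays alone, so that the share of members called is no support. The remaining 3, CCHa2, ITP and Proc, differed by -1.43, -0.55 and -0.45 (adjusted p = 0.478, 0.829 and 0.772). Nplp1 stood at 6.04, 6.34 and 4.26 at ZT3 and at 10.53, 9.54 and 9.37 in per0. No call fell among 8 tested genes for peptide maturation and dense-core vesicles (median -0.30), among them Phm, the peptide-amidating enzyme (1.26, adjusted p = 0.331), and the prohormone convertase amon (-1.26, adjusted p = 0.537).

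Of 27 tested genes in the adhesion and cell-surface list none was called higher and 6 were lower, namely Con, Tl, DIP-gamma, dpr8, dpr11 and Nrg. Of all genes 1.1% were called lower, and the list median was -0.38. This share is no independent support, since Tl and DIP-gamma had been picked on the wild-type arrays. Con had been picked on the difference of per0 from wild type at ZT15. Nrg, the Neuroglian adhesion gene, lay at 8.14, 7.08 and 7.01 at ZT3 and at 4.78, 5.23 and 4.98 in per0 (-2.41, adjusted p = 0.039), while its 2 other tested probe sets differed by 0.49 and -0.09 (adjusted p = 0.847 and 0.975). The immunoglobulin-domain genes dpr8 and dpr11, partners of DIP proteins as a family, differed by -2.87 and -2.62 (adjusted p = 0.039 and 0.0116). The number of lower calls in the list ran from 2 to 7 with 1 of the 15 arrays left out. Nrg lost its call without any ZT3 or per0 array or cyc0 replicate 1, dpr8 without any ZT3 array, per0 replicates 1 or 2 or cyc0 replicate 1, and dpr11 without ZT3 replicate 2 or per0 replicates 1 or 3 (adjusted p 0.0538 to 0.163). After quantile normalization Nrg stood at an adjusted p of 0.0601.

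The calls among second-messenger and transmitter genes were lower in per0, beside 1.1% of all genes called lower. Ac76E and Pka-C3, a catalytic subunit of protein kinase A, were lower among 12 tested genes of cAMP signalling (median -0.46), with Pka-C3 at 8.08, 9.41 and 8.85 at ZT3 and 5.69, 4.52 and 5.92 in per0 (-3.40, adjusted p = 0.00775). In cyc0 Pka-C3 averaged 2.88, and the adenylyl cyclase gene Ac13E differed by -2.86 in per0 (adjusted p = 0.0596). Vmat and Ddc were lower among 6 tested genes of transmitter synthesis and transport, where ChAT, VAChT and Gad1, markers of cholinergic and GABAergic neurons, lay below 4 on all 6 arrays. Ddc had been picked on the wild-type arrays, so that its call is no independent support. None of 14 tested neurotransmitter receptor genes passed (median -0.77), with the NMDA receptor gene Nmdar1 at -2.16 and the GABA receptor gene Rdl at -2.66 (adjusted p = 0.071 and 0.0847). Apart from ppk20, which reached log2 4 on per0 arrays alone, none of 11 tested sodium, calcium and cation channel genes passed. Neither did any of 14 pan-neuronal and synaptic vesicle genes (median -0.01). The elav transcript lay at 7.13, 7.47 and 8.67 at ZT3 and at 5.80, 5.00 and 6.38 in per0 (-2.03, adjusted p = 0.0847), and passed after centring and after quantile normalization (adjusted p = 0.0242 and 0.0349). The call of Pka-C3 was lost without ZT3 replicate 2 or per0 replicate 2 (0.0596 and 0.0511).

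RNA-binding genes included calls in both directions. Of 14 tested hnRNP and neuronal RNA-binding genes, Hrb87F and Syp were higher and Hrb27C and Imp lower, beside 2.08% of all genes called (median 0.60). Hrb87F and Syp had been picked on the difference of per0 from wild type at ZT15, so that this share is no independent support. Imp and Syp encode RNA-binding proteins with opposing temporal gradients in neural progenitors. Imp lay at 9.05, 8.80 and 9.42 at ZT3 and at 6.37, 5.38 and 6.32 in per0 (-3.07, adjusted p = 0.00865), but 2 other tested probe sets differed by -0.21 and -1.71 (adjusted p = 0.926 and 0.394). Syp lay at 2.83, 2.82 and 4.63 against 5.41, 5.92 and 6.0 (2.35, adjusted p = 0.0433), with 0.28 for its other tested probe set (adjusted p = 0.892). The cofilin gene tsr, whose product severs actin filaments, was also higher, at 8.07, 9.0 and 9.38 at ZT3 and 11.62, 11.47 and 11.44 in per0 (2.69, adjusted p = 0.0306). The dipeptidyl peptidase gene ome lay at 3.89, 4.36 and 2.80 at ZT3 and at 6.20, 6.28 and 6.34 in per0 (2.59, adjusted p = 0.0252), with means of 2.88 to 3.70 in the other 3 groups. It had been picked on the difference of per0 from wild type at ZT15, so that its contrast with that group is no finding. Calls of Syp, tsr and ome were lost without any 1 per0 array, and each also without at least 2 of the other arrays (adjusted p 0.0507 to 0.176 in all), and that of Imp without per0 replicate 2 (0.0517).

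Large housekeeping groups held 2 calls, against 2.08% of all genes. mRpL47 passed among 61 mitochondrial ribosomal protein genes (2.59, adjusted p = 0.0403, list median 0.50) and ATPsynbeta among 54 oxidative phosphorylation subunits (1.88, adjusted p = 0.0433, list median 0.48). For ATPsynbeta the arrays read 8.20, 7.44 and 8.13 at ZT3 and 9.92, 9.78 and 9.73 in per0, and its other tested probe set differed by 0.67 (adjusted p = 0.783). The other tested probe set of mRpL47 differed by 1.37 (adjusted p = 0.416). None passed among 33 cytoplasmic ribosomal protein genes (median -0.55, 6 of 33 positive), 25 proteasome subunits (0.50, 23 of 25 positive), 17 vacuolar ATPase subunits (0.13) and 26 translation initiation factors (0.17), against 0.20 over all genes, whose quartiles were -0.45 and 0.82. Over all genes tested, 2783 of 4718 had a positive difference. Of 13 tested heat-shock and chaperone genes none passed although 11 had a positive difference (median 1.14), with the small heat-shock gene Hsp26 at 1.57 and the co-chaperone Stip1 at 2.29 (adjusted p = 0.0939 and 0.0949). No member passed among 9 activity-regulated and JNK-response genes (median 0.21). The calls of mRpL47 and ATPsynbeta were lost without any 1 ZT3 or per0 array and without cyc0 replicate 1 (adjusted p 0.0573 to 0.179). mRpL47 also failed without elav replicate 3 (0.05) and ATPsynbeta without wild-type ZT15 replicate 2 or elav replicate 2 (0.0516 and 0.0575), and with each array centred on its median ATPsynbeta stood at an adjusted p of 0.0764.

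**Figure D4:**
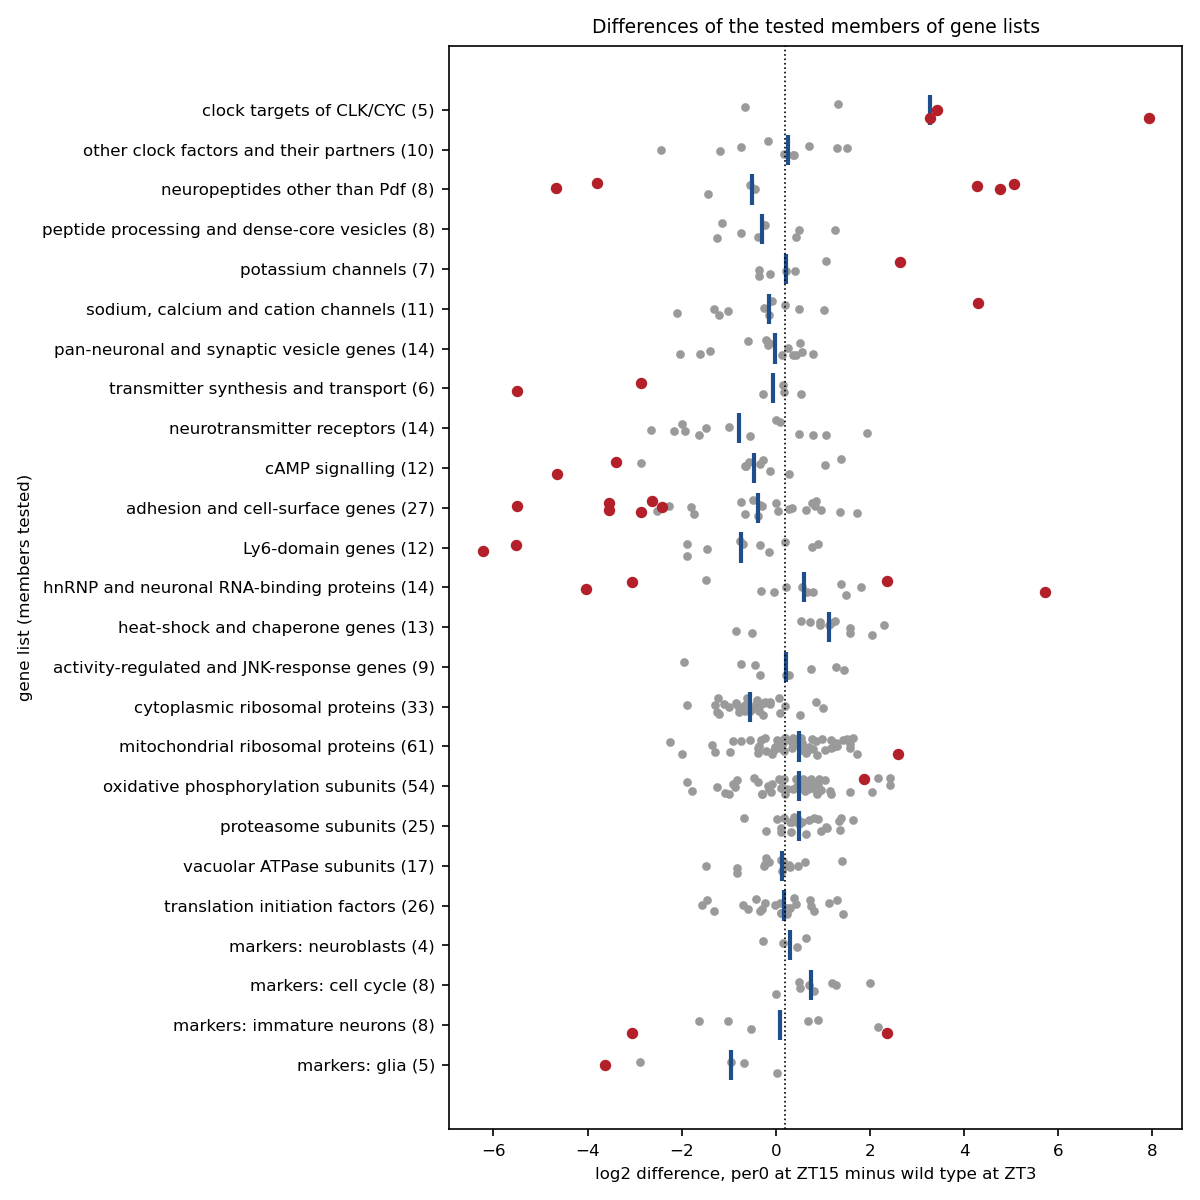
Each point is a tested gene of a list (number of members tested in brackets) at its log2 difference of per0 at ZT15 from wild type at ZT3. Red points passed an adjusted p of 0.05, blue bars are list medians and the dotted line is the median over all genes (0.20), and the calls of the neuropeptide list lie at both ends while those of the adhesion list lie below 0.

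Markers of dividing and newborn cells gave no call apart from Imp and Syp. Of 8 tested cell cycle genes none passed (median 0.76), and Mcm6, a replication helicase subunit, differed by 2.00 (adjusted p = 0.139). The log2 of the summed level of 11 cell cycle markers was 6.43 to 6.96 at ZT3, 6.86 to 8.02 in per0 and 9.32 to 9.49 in elav neurons. On a per0 array 2 to 8 of these markers reached log2 4, against 0 to 1 on a ZT3 array. In cyc0 the sum was 7.13 to 8.06, and 2 to 3 of the markers reached that level on an array. Of all probe sets other than controls, 19.7% to 29.0% reached it on a per0 array and 19.4% to 24.0% on a ZT3 array. The neuroblast sum was 5.15 to 6.55 at ZT3 and 5.07 to 6.63 in per0, against 8.55 to 9.25 in elav neurons, and none of 4 tested neuroblast markers passed. Their part in the transcripts that were higher in per0, and also high in elav neurons, was not tested.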

How the data were processed

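Larval neurons were sorted by fluorescence, and their RNA was amplified (NuGen WT-Ovation) and hybridised to arrays, per the labels' protocols. The deposited log2 values were made by the authors with GCRMA, per the submitters' processing notes, and the version is not given in the sources used here. Values near the floor have no firm order, and differences against a dim group depend on the background correction. The 100 control probe sets were left out. Among the other 18769, genes are named only for the 13647 probe sets with 1 symbol (402 carried several, 4720 none in the table used). The 5829 probe sets that reached log2 4 on 3 or more arrays were tested. A mean per group was fitted to all 15 arrays with limma 3.58.1 in R 4.3.3 (lmFit, eBayes), with two-sided p-values adjusted by Benjamini-Hochberg over all probe sets tested. A gene with several probe sets was counted by its brightest (mean of 15 arrays). The 95% intervals come from the same fit and are not adjusted. The number of arrays limits the precision, and the titles call the replicates biological. The script was tested on simulated data.

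Genes were named by rule, namely the up to 20 largest differences in each direction among called genes without overlap, a fixed clock and marker set, called members and up to 3 members with the smallest p of each list, and transcripts seen in earlier results. Members, lists and tests were chosen with earlier results of these data known. Same-numbered arrays of the 2 groups had deviations from the group means that correlated at 0.03, -0.14 and 0.12. Differently numbered arrays correlated between -0.19 and 0.18. So few values cannot settle whether the numbers pair the arrays, and no pairing was used in the main fit. One of the gene lists is not reported here.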

Additional observations from a re-analysis of the deposited data

How the results depend on the processing

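The 126 called probe sets (57 higher, 69 lower) became 62 (30 and 32) with no filter on low values, 183 (72 and 111) with each array centred on its median, 193 (80 and 113) after quantile normalization, 612 (362 and 250) with array weights, whose estimation stopped with a convergence warning, and 21 (9 and 12) when a log2 difference beyond 1 was required. The required difference lowers the count by construction, and for the other settings the cause was not tested. With 1 of the 15 arrays left out, the count ran from 37 to 157, the higher calls from 14 to 78 and the lower calls from 23 to 83. With the replicate block the count was 113, of which 106 were among the 126, and whether the replicate numbers pair the arrays was not settled. Of 55 named genes that passed, 17 passed under every alternative in which they were tested, which for Capa and Ntl leaves out the filter at log2 6. They were tim, Hrb87F, CG45263, Capa, ppk20, Pura, Plp, CG31675, CG9338, Con, CG5023, CG7607, Ntl, CG10970, CG18265, CG1090 and DIP-gamma, and the other 38 were lost under at least 1. Single genes were followed through the alternatives only if called or in the fixed clock and marker set. The only reversal among those was cry, at 0.38 and not called, which ranged from -0.23 (without per0 replicate 1) to 1.16 with an array left out. With 3 arrays a group the number of arrays, and for dim transcripts the background, limit the precision.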
